A study of Mus musculus with 8 samples.

Results

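The genes described here are 10 markers of liver sinusoidal endothelial cells, chosen by symbol as Stab1, Stab2, Lyve1, Clec4g, Pecam1, Kdr, Fcgr2b, Oit3, Dnase1l3 and Gata4. All 10 were found among the 21532 genes of the deposited table, and all 10 were among the 15989 genes tested. Livers came from male db/db mice on the C57B/6J background, an obese and diabetic strain without functional leptin receptors. Injections of control or AF1 peptide into the retro-orbital vessels began at 8 weeks of age and went on for 5 weeks, with 2 injections of 5 mg/kg in each week. AF1 peptide is a synthetic stretch of estrogen receptor α joined to a TAT sequence for entry into cells. Whole liver of 4 control and 4 AF1 peptide-treated mice was sequenced, with 1 library per mouse. Every mouse of both groups carried the db/db genotype, so no comparison with a lean liver was made.

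Sinusoidal endothelial cells line the capillaries of the liver. Their wall is perforated by open pores and lacks a firm basement membrane, so plasma reaches the hepatocytes directly. They clear waste from blood by endocytosis, through scavenger receptors, hyaluronan receptors, lectins and an inhibitory Fc receptor. The transcription factor GATA4 is required for this specialized form of endothelium, and the receptor for vascular endothelial growth factor (VEGF), encoded by Kdr, helps to maintain it.

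The reads behind these values were recovered from the table, which gives them after division by 1 size factor for each library. Libraries held 23031880 to 45117528 reads. A marker was covered by 68 reads (Lyve1 in AF1 peptide replicate 2, the shallowest library) to 4617 reads (Stab1 in AF1 peptide replicate 3). AF1 peptide replicate 1 had the lowest share of reads from mitochondrial genes, 20.8%. This share was 34.3 to 37.8% in AF1 peptide replicates 2 to 4 and 22.4 to 34.3% in control mice. Results that rest on AF1 peptide replicate 1 are therefore also given without it. Hepatocyte markers identified the tissue as liver, with a summed normalized count of 2446409 to 2564870 in control and 1675363 to 2558620 in AF1 peptide-treated mice.

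Of the 10 markers, 0 were called higher and 0 lower with AF1 peptide at an unadjusted p value under 0.05 with more than 1.3-fold change in limma. Among all genes tested, 1.79% were called higher and 1.9% lower by this rule. At an unadjusted p value under 0.05 alone, limma, edgeR and DESeq2 each gave 1 of the 10 markers, Stab1, which was higher. In limma, 6.19% of all genes passed that threshold, 3.16% higher and 3.03% lower. No gene of the table had an adjusted p value under 0.05 in limma (0%), where edgeR gave 0 and DESeq2 gave 3 genes. The log2 fold change (AF1 peptide minus control) was below 0 for 8 markers and above 0 for 2, where 51.8% of all genes were below 0. Its median was -0.07 over the markers and -0.0083 over all tested genes. With libraries rescaled to equal totals, 9 markers were below 0, and the medians were -0.16 and -0.0987. Without AF1 peptide replicate 1, it was below 0 for 5 and above 0 for 5 markers, with a median of 0.05. In whole liver, a change in the number of endothelial cells and a change in RNA per cell cannot be told apart.

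**Figure D1:**
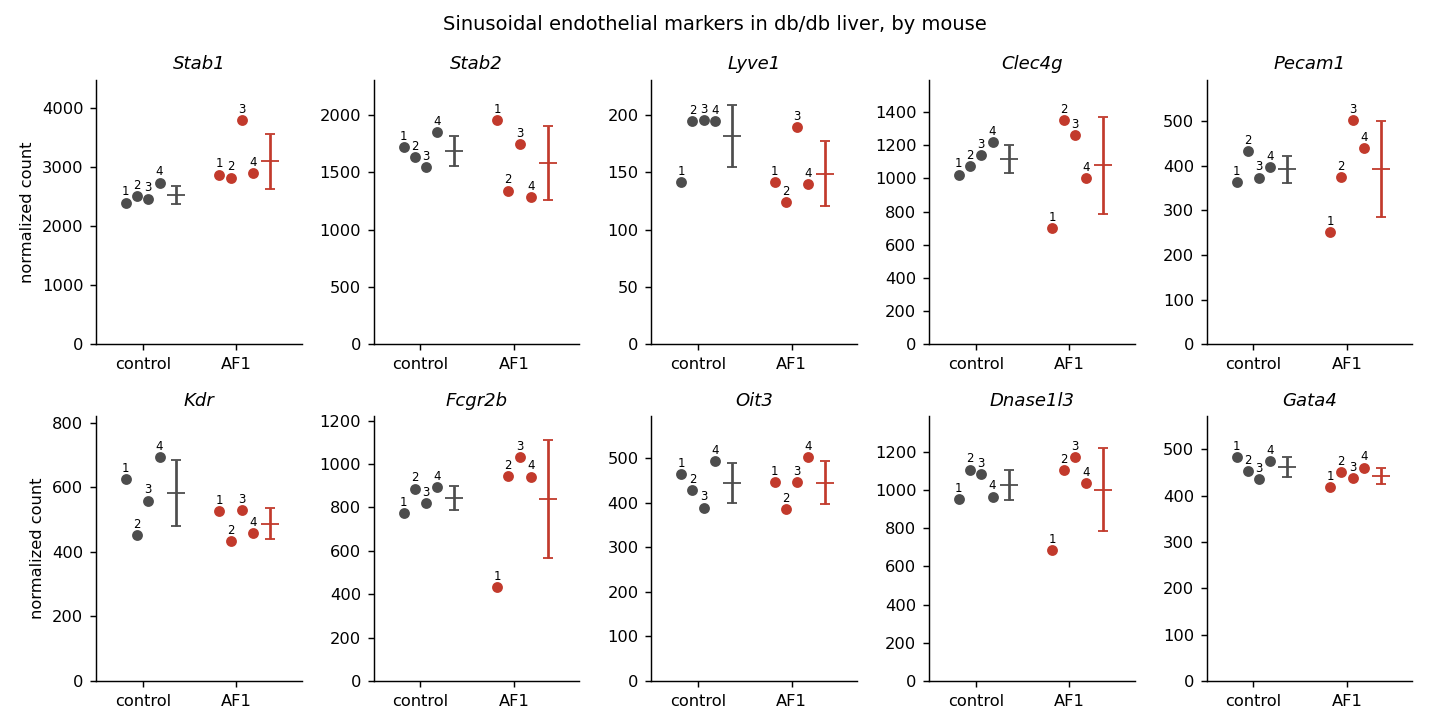
Normalized count of each of the 10 markers (vertical axes, from 0) in each control (grey) and AF1 peptide-treated (red) mouse, numbered by replicate, with the mean and SD of each group (n = 4) beside the points. Stab1 is the marker whose groups do not overlap, and AF1 peptide replicate 1 is the lowest mouse for Clec4g, Pecam1, Fcgr2b, Dnase1l3 and Gata4.

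The levels of the markers were compared in control livers per kilobase of exon, since longer transcripts collect more reads. The length was that of all annotated exons of a gene together in GENCODE M21. The order depends on this choice, and the lengths of the transcripts expressed in these livers were not measured. Clec4g was the most abundant, with 453 ± 34.4 normalized counts per kilobase (SD, n = 4), followed by Stab1 with 246 ± 14.3. Dnase1l3 had 199 ± 15.3 and Stab2 had 193 ± 15.0 normalized counts per kilobase (SD, n = 4), and these neighbours overlapped. Oit3 (159 ± 16.3) overlapped with Stab2 above it and with Fcgr2b (146 ± 9.93) below it. Gata4 followed with 118 ± 5.56, apart from its neighbours on both sides. Kdr (64.6 ± 11.5), Pecam1 (62.8 ± 4.92) and Lyve1 (62.3 ± 9.17) formed the lowest group, and their ranges overlapped.

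The scavenger receptors stabilin-1 and stabilin-2 are encoded by Stab1 and Stab2 and take up modified proteins, and stabilin-2 also takes up hyaluronan. Stabilin-1 is also made by some macrophages. Stab1 had normalized counts of 2403.8, 2512.1, 2471.1 and 2741.8 in control replicates 1 to 4 and of 2878.8, 2825.5, 3803.4 and 2898.3 in AF1 peptide replicates 1 to 4. Every AF1 peptide-treated mouse lay above every control mouse, and replicate 3 was far the highest. Among all genes tested the groups did not overlap in 3.9% (2.05% with AF1 peptide higher), and Stab1 was the 1 such gene of the 10 markers. Mean counts were 2532 ± 147 for control mice and 3102 ± 469 for treated mice (SD, n = 4 each), and the log2 difference was 0.28 (95% interval 0.03 to 0.53). The unadjusted p value was 0.0313 and the adjusted p value 0.763 in limma with Benjamini-Hochberg adjustment, and a two-sided exact permutation test gave p = 0.0286, the smallest that 4 mice against 4 allow. This 1.22-fold difference was below the 1.3-fold threshold. With libraries rescaled to equal totals, Stab1 had a log2 fold change of 0.19, and without AF1 peptide replicate 3 it had 0.18, with unadjusted limma p values of 0.272 and 0.0802. Stab1 overlaps Nt5dc2 on the opposite strand, and Stab2, Clec4g and Fcgr2b also overlap genes on the opposite strand. Whether reads were counted by strand is not given in the sources used here. The normalized count of Nt5dc2 was 58.4 to 101 in the 8 mice.

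Stab2 had normalized counts of 1719.0, 1631.8, 1542.5 and 1850.8 in the control mice and of 1954.1, 1338.8, 1743.1 and 1283.8 in the AF1 peptide-treated mice. AF1 peptide replicate 1 was the highest of all 8 mice and replicates 2 and 4 were the lowest, so the groups overlapped. Stab2 had a log2 fold change of -0.11 (95% interval -0.43 to 0.20, limma adjusted p = 0.872), and -0.22 without AF1 peptide replicate 1. The ratio of Stab1 to Stab2 was examined after these values were seen and is given as a description. It was 1.398, 1.54, 1.602 and 1.481 in control replicates 1 to 4 and 1.473, 2.111, 2.182 and 2.258 in AF1 peptide replicates 1 to 4. Stab1 was thus higher relative to Stab2 in those 3 treated livers than in any control liver, while AF1 peptide replicate 1 lay within the control range.

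**Figure D2:**
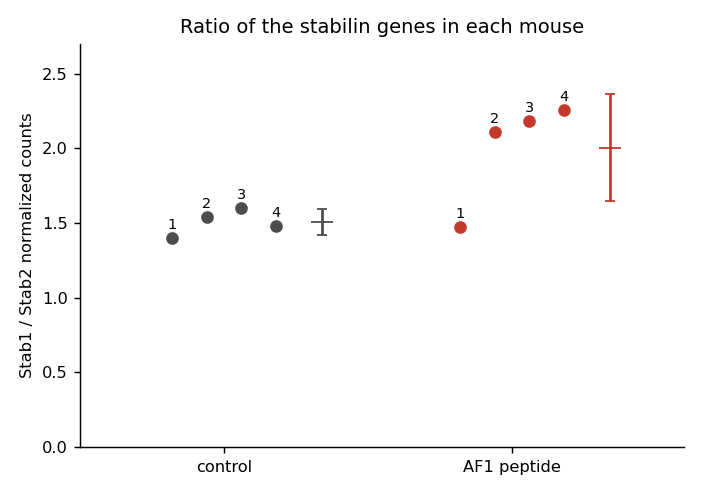
Ratio of the normalized counts of Stab1 and Stab2 (vertical axis, from 0) in each mouse, numbered by replicate, with the mean and SD of each group (n = 4). Control mice lie at 1.398 to 1.602, and AF1 peptide replicates 2 to 4 lie at 2.111 to 2.258.

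The stretches of 250 bases before the annotated starts of both stabilin genes are shown as a description. They are reference sequence and not that of these mice, and any bearing on the ratio was not tested. They come from a table of RefSeq promoters on build GRCm38.p6, in which 5 of the 10 markers were matched, and are written 5′ to 3′ on the minus strand. The Stab1 stretch lies at chr14:31168642-31168891 and the Stab2 stretch at chr10:87007943-87008192. Capitals mark the letters AGGAAG or CGGAAG on either strand, a core bound by ETS factors, which are active in endothelium.
Stab1: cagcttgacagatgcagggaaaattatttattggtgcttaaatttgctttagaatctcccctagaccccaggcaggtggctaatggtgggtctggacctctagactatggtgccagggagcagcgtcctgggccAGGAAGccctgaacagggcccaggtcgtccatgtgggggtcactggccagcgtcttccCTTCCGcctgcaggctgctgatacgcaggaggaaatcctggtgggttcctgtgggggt
Stab2: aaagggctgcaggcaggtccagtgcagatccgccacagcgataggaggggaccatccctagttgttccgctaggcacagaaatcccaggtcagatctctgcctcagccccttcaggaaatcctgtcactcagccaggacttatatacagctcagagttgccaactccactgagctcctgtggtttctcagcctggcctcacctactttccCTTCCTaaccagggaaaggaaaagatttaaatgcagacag
Stab1 held 2 matches and Stab2 held 1, and 39.2% of 32851 promoter stretches of this length held at least 1. Of the 5 marker promoters, 3 held such a match. The GATA letters AGATAA or TGATAA on either strand were found in 0 of the 5 marker promoters and in 16.6% of all promoters. A match of letters is a description and not a binding site, and the absence of these letters from a short stretch says nothing of GATA4 itself.

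Lyve1 encodes a hyaluronan receptor of sinusoidal and lymphatic endothelium. Its normalized counts were 141.7, 195.0, 195.7 and 195.1 in control and 141.8, 124.2, 189.5 and 139.6 in AF1 peptide-treated mice. Control replicate 1 lay among the treated mice, and AF1 peptide replicate 3 lay close to the other control mice. Mean counts were 182 ± 26.8 for control mice and 149 ± 28.2 for treated mice (SD, n = 4 each), and the log2 difference was -0.29 (95% interval -0.67 to 0.08). This difference did not pass the test (limma adjusted p = 0.771, exact permutation p = 0.0857). It was -0.41 both without control replicate 1 and without AF1 peptide replicate 3, with unadjusted limma p values of 0.0363 and 0.0273, so that Lyve1 was called lower when either mouse was left out. Lyve1 had the fewest reads of the 10 markers.

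Fcgr2b encodes the inhibitory receptor for immunoglobulin G, which sinusoidal endothelium uses to clear immune complexes and which B cells and macrophages also make. It had normalized counts of 773.0, 887.3, 820.4 and 893.6 in the control mice. AF1 peptide replicate 1 had 433.0, and replicates 2, 3 and 4 had 944.3, 1033.8 and 942.2. Thus 3 treated mice lay above every control mouse and 1 lay far below. Over all mice Fcgr2b had a log2 fold change of -0.08 (95% interval -0.61 to 0.45, limma adjusted p = 0.954), and without AF1 peptide replicate 1 it was 0.21 (standard error 0.10, unadjusted p = 0.0535, adjusted p = 0.50 in limma). Other genes, among them Fcgr3, share 8.41% of the 50-base words in the transcripts of Fcgr2b. This is a share of annotated sequence and not of reads, and its effect on the count was not tested. The summed normalized count of 6 B cell markers was 53 in AF1 peptide replicate 1, 90 to 213 in replicates 2 to 4 and 118 to 159 in control mice. The part of B cells in the Fcgr2b values was not tested.

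Clec4g, a C-type lectin gene of sinusoidal endothelium, had normalized counts of 1022.7, 1076.3, 1140.4 and 1219.3 in control and 698.9, 1351.6, 1259.6 and 1002.8 in AF1 peptide-treated mice. The treated mice included the lowest and the highest values of all 8. Its log2 fold change was -0.09 (95% interval -0.50 to 0.32, limma adjusted p = 0.931) and 0.10 without AF1 peptide replicate 1. Dnase1l3 encodes a secreted nuclease that degrades DNA in chromatin and vesicles. Its normalized counts were 952.6, 1106.9, 1082.0 and 965.6 in control and 686.8, 1106.8, 1174.7 and 1036.8 in AF1 peptide-treated mice. Again AF1 peptide replicate 1 was the lowest and the other 3 treated mice overlapped with the control mice. For Dnase1l3 the log2 fold change was -0.06 (95% interval -0.42 to 0.29, limma adjusted p = 0.945), and 0.11 without that mouse.

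Oit3 encodes a protein with a zona pellucida domain. Its normalized counts were 464.8, 428.4, 389.1 and 494.1 in control and 447.0, 385.4, 445.7 and 503.2 in AF1 peptide-treated mice, and the groups covered nearly the same range. For Oit3 the log2 fold change was 0.0033 (95% interval -0.26 to 0.26, limma adjusted p = 0.996). Gata4 had normalized counts of 483.7, 453.0, 435.6 and 474.8 in control and 419.0, 451.1, 438.3 and 460.1 in AF1 peptide-treated mice. It was the steadiest of the 10 markers, with an SD of 0.07 in control and 0.06 in AF1 peptide-treated mice on the log2 scale. For Gata4 the log2 fold change was -0.06 (95% interval -0.26 to 0.14, limma adjusted p = 0.896). Stellate cells of the liver also make GATA4. For Oit3 and Gata4, 2 of the 10 markers, the 95% interval lay wholly within a 1.3-fold change in either direction.

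Pecam1 and Kdr mark endothelium more widely. Pecam1 encodes an adhesion molecule of endothelial junctions, which platelets and leukocytes also carry. Its normalized counts were 363.4, 432.3, 372.9 and 396.1 in control and 250.1, 374.4, 501.7 and 439.0 in AF1 peptide-treated mice, so that the treated mice spread to both sides of the control mice. For Pecam1 the log2 fold change was -0.04 (95% interval -0.47 to 0.38, limma adjusted p = 0.975) and 0.16 without AF1 peptide replicate 1. Kdr had normalized counts of 626.3, 452.0, 558.9 and 695.1 in control and 527.2, 434.7, 529.7 and 459.2 in AF1 peptide-treated mice. Control replicate 2 lay among the treated mice and the other 3 control mice lay above them. For Kdr the log2 fold change was -0.24 (95% interval -0.56 to 0.07, limma adjusted p = 0.772). Without control replicate 2 it was -0.36 at an unadjusted limma p value of 0.0176, still short of the 1.3-fold threshold, and without control replicate 4 it was -0.15.

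**Figure D3:**
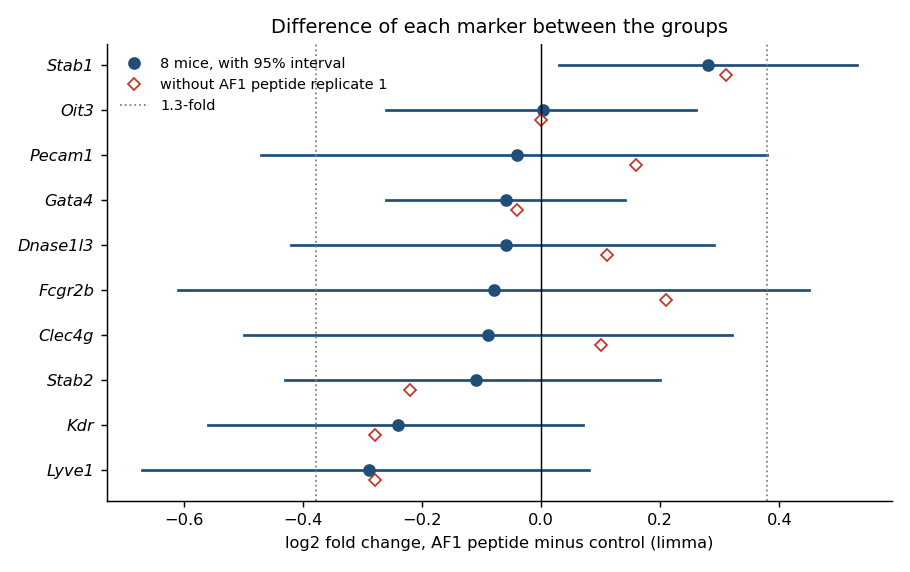
Log2 fold change of each marker (horizontal axis, AF1 peptide minus control) from limma over 8 mice, as points with 95% intervals, and without AF1 peptide replicate 1, as open diamonds, with dotted lines at 1.3-fold. The interval of Stab1 (0.03 to 0.53) lies above 0, and the values of Clec4g, Pecam1, Fcgr2b and Dnase1l3 move from below to above 0 when that mouse is left out.

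The low values of AF1 peptide replicate 1 did not extend to all markers. Relative to the control mean on the log2 scale, this mouse was at -0.96 for Fcgr2b, -0.67 for Clec4g, -0.64 for Pecam1 and -0.58 for Dnase1l3. In the same liver Stab1 was at 0.19, Stab2 at 0.22 and Oit3 at 0.02. Its markers thus ranged from -0.96 to 0.22, against -0.53 to 0.28 in AF1 peptide replicate 2, -0.12 to 0.59 in replicate 3 and -0.39 to 0.20 in replicate 4. The summed normalized count of 22 genes of endothelium in general was 9732 in AF1 peptide replicate 1, 9529 to 12000 in replicates 2 to 4 and 8974 to 10466 in control mice. For other sinusoidal genes the sums were 21770, 12953 to 14344 and 14764 to 18201 in the same order. Capillary-type genes had 4621, 6241 to 8276 and 6609 to 8501. Stellate cell markers had 9753, 11065 to 18146 and 11160 to 14256, and bile duct markers had 1208, 1856 to 2865 and 1726 to 2301. Such sums weigh the most abundant genes of a list most. By gene, the median log2 fold change of the other sinusoidal genes was -0.19 over all mice and -0.03 without AF1 peptide replicate 1. For the 22 general endothelial genes it was -0.0028 and 0.1. The summed count of 11 markers of Kupffer cells and other macrophages was 3679 in AF1 peptide replicate 1, against 9099 to 9925 in replicates 2 to 4 and 8250 to 10529 in control mice. None of the macrophage genes was at 0 in every mouse. Of these 11 genes, 10 had a log2 fold change below 0, and 6 without AF1 peptide replicate 1. The part of macrophages in the values of Fcgr2b and of the other markers that were low in this liver was not tested.

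**Figure D4:**
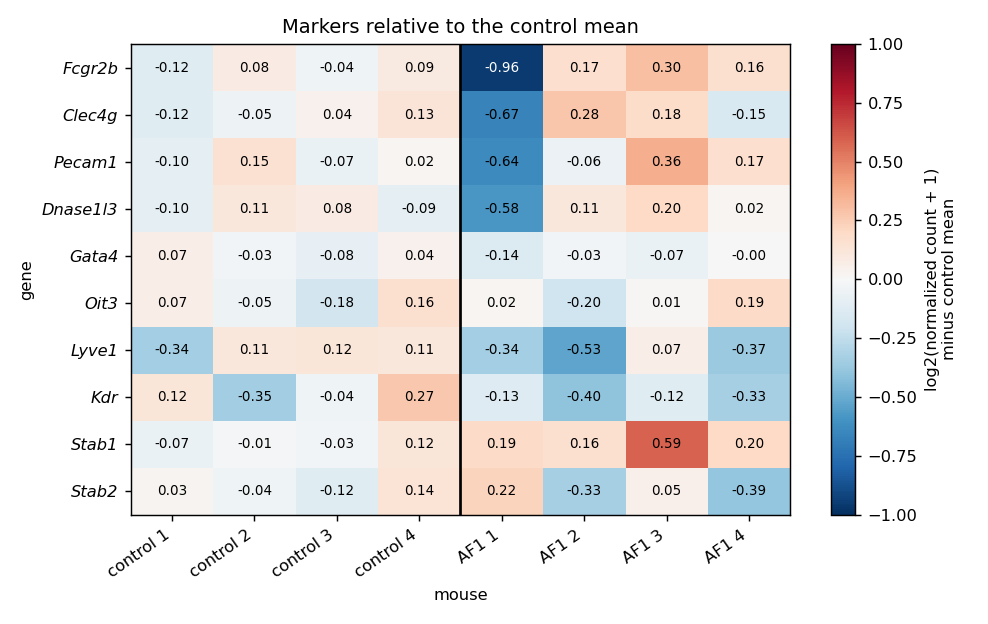
Log2(normalized count + 1) of each marker (rows) in each mouse (columns) minus the mean of the 4 control mice, with blue for lower and red for higher values. In AF1 peptide replicate 1, Fcgr2b is at -0.96 while Stab1 is at 0.19 and Stab2 at 0.22.

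Other genes of sinusoidal and general endothelium, and of the pathways and receptor families of the markers, were taken from 12 lists. These overlap in part and hold 112 genes that are not markers, 104 of them tested. Some are also made by other cells, such as the Fc receptors and Marco of macrophages. Of these, 3 were called higher and 2 lower, or 4.81% in either direction, against 3.69% of all genes tested. Their median log2 fold change was -0.06. Among 13 tested genes of the list of other sinusoidal genes, 0 were called by limma and 0 had an unadjusted p value under 0.05, and the gene with the smallest p value was Clec14a (log2 fold change -0.29, adjusted p = 0.763). None of the 22 general endothelial genes was called in limma (0 called, 0 at an unadjusted p value under 0.05), and the gene with the smallest p value was Egfl7 (log2 fold change 0.28, adjusted p = 0.763). edgeR and DESeq2 were not counted per list.

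Scarf1, which encodes a scavenger receptor of endothelium, was the 1 gene called higher of 11 endocytic and scavenger receptors, and 0 were called lower. Colec12, named for its p value, was lower at an unadjusted p value under 0.05 but short of 1.3-fold (log2 fold change -0.27, adjusted p = 0.763 in limma), and 7 of the 11 genes had a log2 fold change below 0. The normalized counts of Scarf1 were 1034.2, 896.1, 1221.5 and 1096.2 in control and 1608.8, 1598.2, 1552.8 and 1246.2 in AF1 peptide-treated mice. Every treated mouse lay above every control mouse, as for Stab1. Scarf1 had a log2 fold change of 0.50 (95% interval 0.23 to 0.77, unadjusted p = 0.00213, adjusted p = 0.763 in limma), and leaving out single mice gave 0.42 to 0.59, each of the 8 times with an unadjusted p value under 0.05.

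Signals between endothelium and hepatocytes were examined next. Of 10 genes of signals made by sinusoidal endothelium, 7 had a log2 fold change below 0, but 1 was called higher and 0 lower. The called gene was Wnt9b, which encodes a Wnt ligand made around the central vein, with 52.7, 67.9, 56.2 and 51.9 normalized counts in control and 51.3, 118.7, 88.1 and 94.6 in AF1 peptide-treated mice. AF1 peptide replicates 2 to 4 were above every control mouse and replicate 1 was the lowest of all. Wnt9b had a log2 fold change of 0.56 (95% interval 0.02 to 1.11, adjusted p = 0.763 in limma), and leaving out single mice kept the unadjusted p value under 0.05 in 2 of 8 fits (0.40 to 0.80, the highest without AF1 peptide replicate 1). These were the fits without control replicate 2 and without AF1 peptide replicate 1. The call was also lost with equal totals and with each gene's own variance. Among 7 genes of endothelium near the central vein, Wnt9b was higher and Thbd, which encodes thrombomodulin, was lower. Wnt2, also a Wnt ligand gene and on both lists, had a log2 fold change of -0.59 and was not called (adjusted p = 0.774 in limma). In all, 5 of these 7 genes were below 0. Thbd had 46.1, 45.3, 36.8 and 46.9 normalized counts in control and 25.2, 31.0, 27.2 and 35.8 in the treated mice, and these ranges were apart. Its log2 fold change was -0.54 (95% interval -0.99 to -0.10, adjusted p = 0.763 in limma), and the unadjusted p value was under 0.05 in 6 of 8 such fits, all but those without control replicates 1 and 4. Of 6 genes of endothelium near the portal tract, 0 were called in limma and 0 had an unadjusted p value under 0.05. Among these, the Notch ligand gene Dll4 had the smallest p value, with a log2 fold change of 0.29 (adjusted p = 0.774), and it was called higher without AF1 peptide replicate 2 (0.44).

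In the Notch pathway, which patterns arterial and venous endothelium, 1 of 13 tested genes was called higher and 0 lower. Notch3, a receptor gene of vascular mural cells, had 74.2, 59.1, 67.0 and 72.9 normalized counts in control and 111.0, 71.2, 103.8 and 99.2 in AF1 peptide-treated mice. AF1 peptide replicate 2 lay within the control range and the other treated mice lay above it. Notch3 had a log2 fold change of 0.48 (95% interval 0.08 to 0.87, adjusted p = 0.763 in limma), and leaving out single mice kept the unadjusted p value under 0.05 in 4 of 8 fits. The call was lost without control replicate 2, without AF1 peptide replicates 1, 3 or 4 (0.40 without replicate 1), and with equal totals (0.39). Of the VEGF pathway beside Kdr, 0 of 4 ligand genes and 0 of 6 genes of receptors and effectors were called or had an unadjusted p value under 0.05 in limma. The smallest p values there belonged to the ligand gene Vegfd (log2 fold change 0.47, adjusted p = 0.763) and the receptor gene Flt1 (log2 fold change 0.24, adjusted p = 0.774). The value of Vegfd was highest in AF1 peptide replicate 1 (331.3 normalized counts, against 104.7 to 168.6 in the other 7 mice). Without that mouse its log2 fold change was 0.22, and over all mice DESeq2 called it higher (0.53).

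Sinusoids that lose their pores gain a basement membrane and capillary genes. Of 13 tested genes of this type, 0 were called higher and 1 lower. Nid1, which encodes the basement membrane protein nidogen-1, had 279.4, 664.7, 355.6 and 402.0 normalized counts in control and 158.6, 206.4, 336.9 and 339.8 in AF1 peptide-treated mice. Control replicate 2 was the highest by far, and control replicate 1 lay among the treated mice. Nid1 had a log2 fold change of -0.70 (95% interval -1.37 to -0.04, adjusted p = 0.763 in limma). It was -0.46 without control replicate 2 and -0.49 without AF1 peptide replicate 1, and the unadjusted p value was under 0.05 in 3 of 8 such fits, those without control replicate 1 and without AF1 peptide replicates 3 or 4. The call was also lost without the trend in limma and with each gene's own variance. Of 5 Fc receptor genes beside Fcgr2b, 0 were called and 0 had an unadjusted p value under 0.05 in limma, and Fcgr4 had the smallest p value (log2 fold change -0.50, and -0.16 without AF1 peptide replicate 1, adjusted p = 0.779 over all mice). With the replicate number as a block, limma called Fcgr4 lower (-0.50). Of 4 tested genes of other GATA factors and cofactors, 0 were called and 0 had an unadjusted p value under 0.05, and Gata2 had the smallest p value (log2 fold change 0.32, limma adjusted p = 0.779), and it was called higher without AF1 peptide replicate 4 (0.47).

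**Figure D5:**
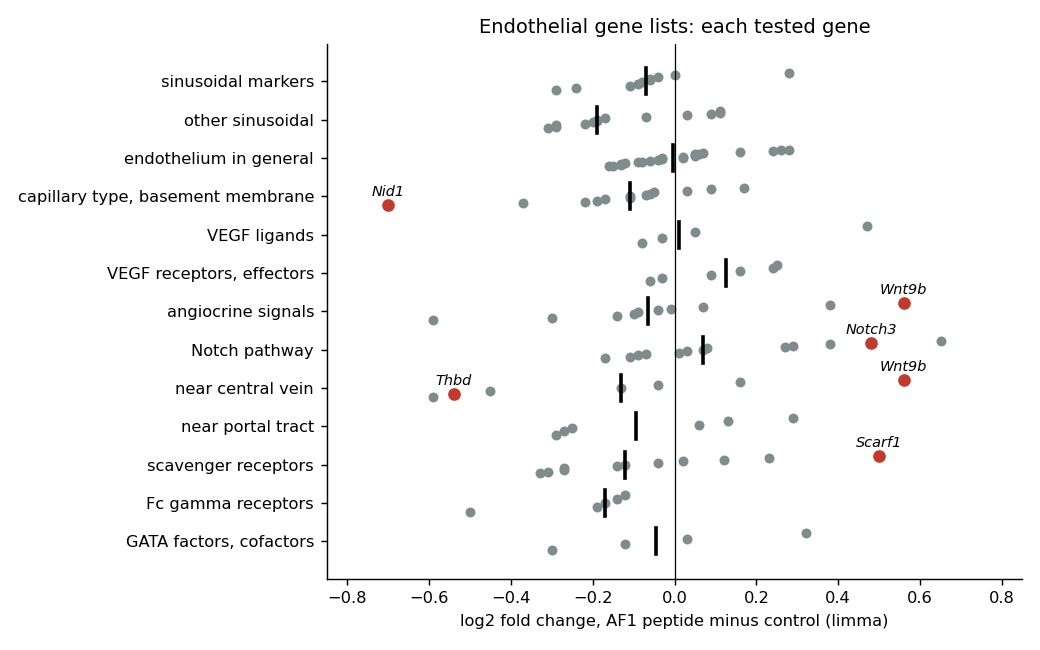
Log2 fold change (horizontal axis, AF1 peptide minus control, limma) of each tested gene in the list of the 10 markers and the 12 other endothelial lists (rows), with called genes named in red and a black bar at the median of each list. The called genes are Scarf1, Wnt9b, Notch3, Thbd and Nid1, and the markers have a median of -0.07.

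The genes whose pattern over the 8 mice was most like the mean z score of the 10 markers were Plpp3, Gm35591, Tead1, Rab34 and Tstd2, with Pearson r values of 0.974, 0.971, 0.958, 0.953 and 0.951. Their Spearman rho values were 0.952, 0.929, 0.81, 0.881 and 0.762. Without the 2 mice farthest from the median of the marker score, AF1 peptide replicates 1 and 3, r over 6 mice was 0.956, 0.954, 0.865, 0.827 and 0.877. These genes were selected for the correlation among all genes whose mean normalized count was 50 or more, so that it is a description with no test, and all points share the libraries and their size factors. The mean z score itself was lowest in AF1 peptide replicate 1 (-0.96) and highest in AF1 peptide replicate 3 (0.67), with -0.13 to 0.64 in control mice.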

How the data were processed

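Liver RNA of 8 male db/db mice (4 control, 4 AF1 peptide) was extracted with TRIzol, and stranded libraries were made from the mRNA. Reads were trimmed with TrimGalore 0.6.7, aligned with HISAT2 2.2.1, sorted with SAMtools 1.17 and counted per gene with GenomicAlignments by the authors. The build named in the submitters' processing notes is mm39. The annotation and the use of strand in counting are not given in the sources used here. The deposited values are a signal, normalized counts, which are reads over the size factor of the library (100% of 172256 values came out whole within 0.01 reads).

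The log2(normalized count + 1) was compared with limma 3.58.1 in R 4.3.3 with an intensity trend. The 15989 genes whose mean normalized count was 10 or more were tested. The p values were adjusted by the Benjamini-Hochberg method over all these genes. On this scale the change of low genes is understated. The calls use the thresholds of the study, a change of more than 1.3-fold at an unadjusted p value under 0.05. The recovered reads tested in edgeR 4.0.16 and in DESeq2 1.42.0, other pseudocounts, filters, scalings and variances, the replicate number as a block and each mouse left out in turn were alternatives. The computation was checked on simulated counts with known changes, drawn with the same spread for every gene, which does not calibrate the test for these mice.

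The markers and the gene lists were chosen with earlier results of these data known. All markers are named. Of each other endothelial list, the called genes (at most 3) or else the gene with the smallest p value are named, and the 5 genes most correlated with the markers. Ccl21a and the macrophage genes are named as cell type markers. Colec12 is named for its unadjusted p value under 0.05. Wnt2 is named because it went the other way from Wnt9b, which is on the same lists. Replicates within a group differed beyond sampling noise (chi-square per degree of freedom 15.7 to 354). Exon lengths, overlapping genes and shared 50-base words came from GENCODE M21 (GRCm38). Beside the promoter stretches of Stab1 and Stab2, given on GRCm38.p6, no gene coordinates are given, since that build differs from mm39.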

Additional observations from a re-analysis of the deposited data

Results flagged for a closer look

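The gap between the highest or lowest mouse of a group and the next one was divided by the whole range of that group. A mouse stood apart where this quotient passed the critical value of Dixon for 4 samples. This was looked for in 48 groups (the 10 markers, the other named genes, total reads and the mitochondrial share, in each group of mice), where chance gives about 2.4, and it occurred in 8. Among the markers, AF1 peptide replicate 3 was high for Stab1 (gap over range 0.914 on the log2 scale), control replicate 1 was low for Lyve1 (0.989) and AF1 peptide replicate 1 was low for Fcgr2b (0.893). The Stab1 value without AF1 peptide replicate 3, the Lyve1 value without control replicate 1 and the Fcgr2b value without AF1 peptide replicate 1 stand beside these genes above. Among the other genes, AF1 peptide replicate 1 was high for Vegfd (0.916) and low for Fcgr4 (0.909), control replicate 3 was low for Thbd (0.857) and AF1 peptide replicate 4 was low for Scarf1 (0.861). Control replicate 1 had the most reads of its group (0.857). The mitochondrial share passed the critical value in neither group, so AF1 peptide replicate 1 did not stand apart in it by this rule.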

How the results depend on the processing

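Over the 19 alternatives run for each marker, 175 of 190 values kept their direction and their side of the threshold, 13 changed sign and 2 came past the threshold. The values that changed sign lay between -0.09 (Oit3 with equal totals) and 0.21 (Fcgr2b without AF1 peptide replicate 1). Oit3 went from 0.0033 to -0.0037 with TMM scaling and -0.09 with equal totals, and ranged from -0.06 to 0.07 with 1 mouse left out. Pecam1 was 0.0028 in edgeR and 0.0049 in DESeq2, and ranged from -0.18 to 0.16 with 1 mouse left out. With 1 mouse left out, Clec4g ranged from -0.21 to 0.10, Fcgr2b from -0.21 to 0.21 and Dnase1l3 from -0.15 to 0.11, and each was above 0 only without AF1 peptide replicate 1. Leaving out 1 mouse gave Stab1 log2 fold changes of 0.18 to 0.32, at an unadjusted p value under 0.05 in 4 of 8 fits. So did 9 of the 11 other alternatives, all but equal totals and limma without the trend. Over all alternatives its adjusted p value was 0.473 to 0.994. Without the fold threshold, 1 marker was called higher, and with 1 mouse left out 0 to 1 markers were called lower. Over all genes, 286 were called higher and 304 lower. The counts were 435 and 459 without a filter, 122 and 602 with equal totals and 506 and 484 without the fold threshold, and with each gene's own variance 197 were lower. With 1 mouse left out in turn, 198 to 457 were higher and 173 to 491 lower, the most without AF1 peptide replicate 1 and the fewest without control replicate 2. Equal totals moved the share of calls that were higher from 48.5% to 16.9%, and the cause was not tested. With the replicate number as a block, limma called 341 genes higher and 392 lower. The numbers mark different mice, same-numbered mice deviated together with correlations of -0.064 to 0.235, and 4 of the 8 mice correlated best with their own number. Under this block no marker was called (0 called, 1 at an unadjusted p value under 0.05, by limma). Lyve1 rests on the fewest reads of the markers.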

Other observations

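Markers of the other cell types that a liver or its vessels could hold were compared in the same way. Over all genes tested, 1.79% were called higher and 1.9% lower, and the groups did not overlap in 3.9%. Of the 3 tested markers of lymphatic endothelium beside Lyve1, 1 was called higher and 0 lower. This was Ccl21a, which encodes a chemokine of lymphatic endothelium and lymphoid stroma, with normalized counts of 95.6, 67.0, 73.5 and 56.9 in control and 125.0, 118.7, 118.6 and 155.2 in AF1 peptide-treated mice. Every treated mouse lay above every control mouse. The log2 fold change of Ccl21a was 0.83 (95% interval 0.42 to 1.24, adjusted p = 0.763 in limma). Ccl21a has near-identical copies in the mouse genome, so its count is uncertain.

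Among the 10 lists of other cell types, the Kupffer cell list had 1 gene called lower, Adgre1 (log2 fold change -0.66, adjusted p = 0.763 in limma, and -0.45 and no longer called without AF1 peptide replicate 1), and the stellate cell list had 1 called lower, Dcn (log2 fold change -0.42, adjusted p = 0.763 in limma). The lists of hepatocytes, bile duct, B cells, T and NK cells, platelets, neutrophils and red blood cells had 0 genes called in limma and 0 at an unadjusted p value under 0.05. The median log2 fold change was -0.32 for the Kupffer cell list and 0.06 for the stellate cell list, and without AF1 peptide replicate 1 it was -0.01 and 0.19. For hepatocytes it was -0.02 over all mice and -0.12 without that mouse. In the same order it was 0.02 and 0.21 for bile duct and -0.26 and 0.08 for B cells. T and NK cells had -0.12 and -0.02, platelets 0.23 and 0.39, and neutrophils -0.14 and 0.23. Red blood cells had -0.23 and -0.18, and lymphatic endothelium 0.11 and 0.18.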
